A study of Mus musculus with 564 samples.

Results

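Far distal elements were the cis-regulatory elements (CREs) whose centre lay more than 50 kb from every protein-coding transcription start that RefSeq annotates on the mouse genome build mm10. They were chosen by position alone, with no measured value, and numbered 11513 of the 59190 CREs in the table (19.5%). Of the others, 11507 lay within 1 kb of such a start and are called promoter elements here, 14622 lay 1 to 10 kb away and 21548 lay 10 to 50 kb away. The median far distal element was 1634 bp wide and 93862 bp from its nearest protein-coding start, and 3050 different genes were the nearest gene of at least 1 of them. In the text an element is named after its nearest protein-coding gene, which is a label of position and not a statement about which gene it acts on.

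The mark measured was acetylation of lysine 27 of histone H3 (H3K27ac), read by ChIP-seq in bone marrow-derived macrophages (BMDMs), primary cells grown from the marrow of wild type male C57/BL6 mice aged 6 to 8 weeks. Cells received vehicle (DMSO) or 1 of 58 clinical kinase inhibitors (CKIs) for 1 h, and were then left unstimulated (UT) or were given lipopolysaccharide (LPS) or interleukin-4 (IL-4), each at 10 ng/mL, for 30 min, 1 h, 2 h or 4 h. The 18 DMSO libraries form 9 groups of 2 replicates, UT and both stimuli at each time, and the 546 CKI libraries form 510 groups, of which 474 hold 1 library. Nothing in the labels says whether 2 replicates came from separate cultures, so the p-values below measure the spread between these libraries only.

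Acetylation of H3K27 marks active promoters and enhancers, and enhancers far from any promoter are brought to their targets by looping of the chromatin. In macrophages the lineage factor PU.1 opens many such sites. LPS acts through TLR4 on NF-kB, AP-1 and interferon regulatory factors, whereas IL-4 acts through JAK kinases on STAT6.

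Windows from 8 far distal elements are printed here because their responses, described further on, span the range of what was measured: 3 with a large rise after IL-4, 4 with a rise after LPS and 1 with a large fall after LPS. Each is the central 300 bases of the element on the plus strand of mm10 (RefSeq assembly GRCm38.p6), in lower case, and capitals mark matches on either strand to 5 short patterns. The patterns were TGANTCA (AP-1), GGG and TTCC 3 bases apart (NF-kB), TTC and GAA 3 or 4 bases apart (STAT), GAAA and GAAA 2 bases apart (ISRE, the interferon-stimulated response element) and TGACGTCA (the cyclic AMP response element). Over the central 300 bases of all 59190 elements, 20.2% held an AP-1 match, 6.81% an NF-kB match, 17.6% a STAT match, 5.13% an ISRE match and 0.848% a cyclic AMP response element. A match describes the letters only and is not evidence of binding.
Socs1 element, chr16:10700265-10700564: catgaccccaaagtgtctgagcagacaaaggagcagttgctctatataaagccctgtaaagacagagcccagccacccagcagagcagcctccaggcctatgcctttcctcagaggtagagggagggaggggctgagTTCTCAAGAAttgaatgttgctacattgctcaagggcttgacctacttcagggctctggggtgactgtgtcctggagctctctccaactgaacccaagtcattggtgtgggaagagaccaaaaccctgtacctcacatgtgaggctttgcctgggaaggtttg
Spry1 element, chr3:37535847-37536146: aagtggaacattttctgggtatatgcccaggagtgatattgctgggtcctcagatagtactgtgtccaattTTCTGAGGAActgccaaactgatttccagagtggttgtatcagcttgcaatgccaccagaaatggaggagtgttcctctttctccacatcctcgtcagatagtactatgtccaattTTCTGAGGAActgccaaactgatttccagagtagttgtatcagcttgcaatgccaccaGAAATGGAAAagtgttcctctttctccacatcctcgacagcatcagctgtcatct
Slc1a2 element, chr2:102791698-102791997: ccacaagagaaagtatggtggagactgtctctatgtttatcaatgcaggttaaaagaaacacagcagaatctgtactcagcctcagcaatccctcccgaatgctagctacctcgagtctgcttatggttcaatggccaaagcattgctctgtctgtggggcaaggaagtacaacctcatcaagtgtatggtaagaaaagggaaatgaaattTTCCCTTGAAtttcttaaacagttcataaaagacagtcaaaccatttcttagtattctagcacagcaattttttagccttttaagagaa
Abcb5 element, chr12:119101523-119101822: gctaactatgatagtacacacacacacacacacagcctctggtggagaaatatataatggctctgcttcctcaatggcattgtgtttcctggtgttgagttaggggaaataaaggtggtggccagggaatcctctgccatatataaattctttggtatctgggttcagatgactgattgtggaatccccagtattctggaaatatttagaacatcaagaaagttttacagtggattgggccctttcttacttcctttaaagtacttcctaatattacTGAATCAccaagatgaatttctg
Fosl2 element, chr5:32035746-32036045: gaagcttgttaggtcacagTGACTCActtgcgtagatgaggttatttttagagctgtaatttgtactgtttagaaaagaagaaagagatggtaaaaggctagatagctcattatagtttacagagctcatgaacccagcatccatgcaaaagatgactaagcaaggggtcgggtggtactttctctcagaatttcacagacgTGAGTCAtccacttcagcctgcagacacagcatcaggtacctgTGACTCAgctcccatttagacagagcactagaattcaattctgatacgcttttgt
Eea1 element, chr10:96094287-96094586: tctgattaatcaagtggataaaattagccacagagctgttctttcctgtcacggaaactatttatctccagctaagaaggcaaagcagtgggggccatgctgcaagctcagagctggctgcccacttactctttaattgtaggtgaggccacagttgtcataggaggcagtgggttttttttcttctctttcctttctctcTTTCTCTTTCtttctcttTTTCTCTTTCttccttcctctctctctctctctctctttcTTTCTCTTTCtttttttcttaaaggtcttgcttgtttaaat
Ets2 element, chr16:95836059-95836358: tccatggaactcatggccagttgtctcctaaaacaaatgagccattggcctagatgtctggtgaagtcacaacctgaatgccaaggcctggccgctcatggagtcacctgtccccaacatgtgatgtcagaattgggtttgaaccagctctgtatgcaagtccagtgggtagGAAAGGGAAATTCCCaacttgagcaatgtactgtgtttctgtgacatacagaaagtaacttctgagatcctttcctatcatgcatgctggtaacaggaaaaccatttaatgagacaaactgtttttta
Mef2a element, chr7:67461930-67462229: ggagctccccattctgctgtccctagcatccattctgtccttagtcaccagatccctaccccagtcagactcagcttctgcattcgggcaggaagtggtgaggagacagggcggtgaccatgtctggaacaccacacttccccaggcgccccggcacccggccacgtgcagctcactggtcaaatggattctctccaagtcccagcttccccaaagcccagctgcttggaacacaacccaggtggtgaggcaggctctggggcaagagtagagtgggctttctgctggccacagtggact

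All 3 windows from elements that rose after IL-4 (Socs1, Spry1, Slc1a2) hold a STAT pattern with 4 spacer bases, and the Spry1 window holds the same stretch around it at positions 72 and 188, counted from 1 at the first base printed. Of the 4 windows from elements that rose after LPS, the Fosl2 window holds AP-1 matches at positions 20, 203 and 246, the Abcb5 window holds 1 AP-1 match, and the Ets2 window holds an NF-kB match that overlaps an ISRE match. The Eea1 window holds 3 ISRE matches on the minus strand, all within a tract of T and C. The Mef2a window, from an element that lost acetylation after LPS, holds none of the 5 patterns.

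Over the 18 DMSO libraries the deposited values summed to between 5923684 and 6873668 per library, and far distal elements held 12.4% to 15.4% of that sum. In the CKI libraries the far distal share was 10.7% to 32.1%, with a median of 17.1%. Contrast was the ratio of a library's medians over the top and the bottom 10% of CREs, ranked once by their mean over all libraries. It was 53.0 to 133.7 in DMSO libraries and 3.34 to 67.2 in CKI libraries. The 30 min LPS library of the CKI PH797804 stood apart, with 12451 CREs at 0, of which 2721 were far distal, against 24 to 3795 CREs at 0 in each of the other 545 CKI libraries. Replicate DMSO libraries correlated across far distal elements with r between 0.946 and 0.975, a description over elements that share a library. Promoter elements of 5 of 8 macrophage markers were in the table, at 102 to 370 normalized read counts per kb in UT cells. The macrophage markers Csf1r, Adgre1 and Cd68 had none. Of 4 neutrophil markers only S100a8 had one, at 7.57 per kb, and of 3 fibroblast markers only Col1a1, at 2.19 per kb. None of the T cell, B cell, epithelial or hepatocyte markers had a promoter element.

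Intergenic sequence held 5353 of the far distal elements (46.5%). A further 4489 lay inside a protein-coding gene, 4323 of them in an intron, far from that gene's start, and 1671 (14.5%) lay inside a non-coding gene. The largest share, 6235 (54.2%), were 50 to 100 kb from the nearest protein-coding start, 3390 were 100 to 200 kb away, 1589 were 200 to 500 kb away, and 299 lay farther. The start of an annotated non-coding transcript was within 1 kb of 453 elements (3.93%). In 423 elements (3.67%) more than 20% of the 51-base words occur again elsewhere in the genome, so that short reads there cannot be placed by sequence alone.

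In UT cells the far distal elements were the most weakly acetylated of the distance classes per unit length. The median was 12.9 normalized read counts per kb, against 14.0 for elements 10 to 50 kb from a start, 16.9 for those 1 to 10 kb away and 68.4 for promoter elements. The range among far distal elements was wide, with the 10th percentile at 2.41 and the 90th at 88.8 per kb, so the strongest far distal elements overlapped the levels of promoters. Their median G+C content in the central 300 bases was 46.0%, against 61.3% for promoter elements. The 50 kb limit itself marked no step. The 1231 elements 45 to 50 kb from a start and the 1002 elements 50 to 55 kb from one both had a median of 14.1 per kb, and 62.3% and 62.0% of those tested, respectively, were called after LPS by the test described next.

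The highest UT values stood at 4 elements. Of these, 2 lie at the proximal end of chromosome 9 (chr9:3000048-3009316 and chr9:3021693-3028368), where 83.5% and 79.2% of the 51-base words are repeated, and their values in the UT libraries differed between replicates, 4687 and 2775 at the first and 4505 and 2647 at the second. Both were called higher after LPS and after IL-4, but the calls were lost under quantile normalization of the libraries, where the largest difference fell to 0.18 and 0.78 (log2) after LPS. For chr9:3000048-3009316 the IL-4 call was also lost when DMSO UT replicate 2 was left out. The other 2 are unique sequence. The Dhrs3 element (chr4:144995150-144999287), in an intron of Vps13d, had 1529 and 1518 normalized read counts in UT cells, and the Fancc element (chr13:63252517-63260674), in an intron of Aopep, had 1525 and 1450. Both fell after LPS, to 416 and 444 at 2 h for the Dhrs3 element and to 717 and 719 at 2 h for the Fancc element, and neither was called after IL-4.

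After LPS, 6129 of the 9581 far distal elements that could be tested in DMSO cells (64.0%) changed, 3562 of them rising and 2567 falling. An element was tested when its mean over the 10 libraries was at least 10. The remaining far distal elements have no LPS call. The test was the limma moderated F-test over the differences from UT at all 4 times jointly. A call needed a Benjamini-Hochberg adjusted p below 0.01 and a difference from UT above 1 in absolute log2, a 2-fold change, at 1 or more times. Adjusted p-values of single elements below come from this joint test, while each SE belongs to 1 time. Over all CREs tested the called share was 53.5%, with 29.0% called higher and 24.6% called lower. The share rose with distance from the start, from 31.2% of promoter elements through 56.8% and 59.4% of the nearer distal classes to the 64.0% of far distal elements. Elements of low value are harder to call, so the classes were also set side by side within 5 equal groups of CREs ranked by mean value. In the middle group, 79.3% of far distal elements were called, against 73.8% at 10 to 50 kb, 68.8% at 1 to 10 kb and 37.6% at promoters, and the far distal share was the highest of the 4 classes in each of the 5 groups.

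**Figure D1:**
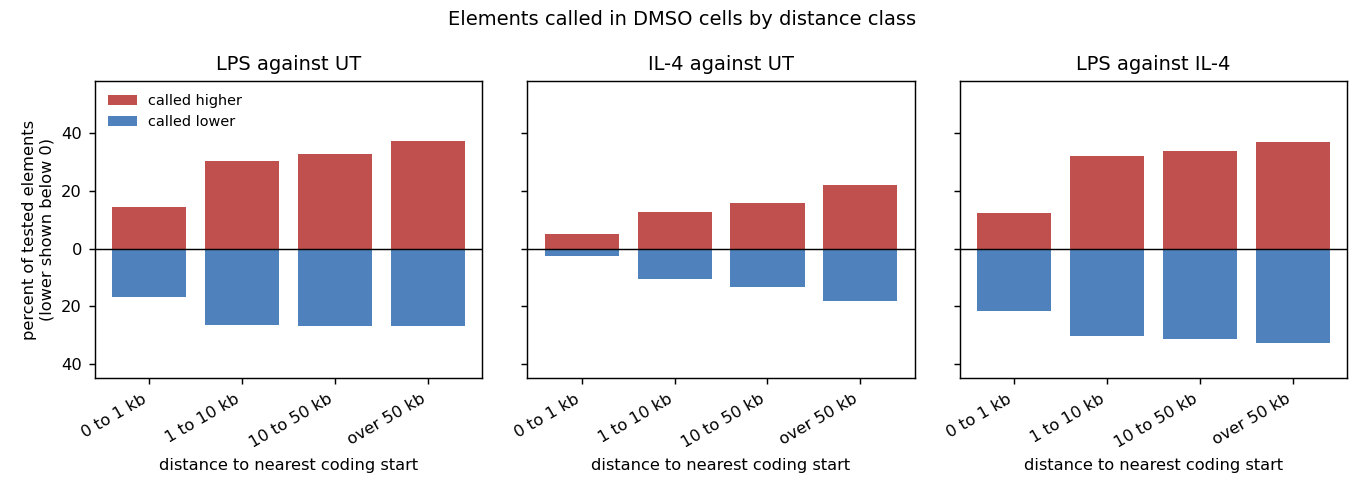
Percent of tested CREs called higher (red, above 0) or lower (blue, below 0) in DMSO cells by distance of the element from the nearest protein-coding start, for LPS against UT, IL-4 against UT and LPS against IL-4. Far distal elements have the largest called share in each panel, 64.0%, 40.4% and 69.5%, and promoter elements the smallest.

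IL-4 called fewer elements, again with the lowest share at promoters and the highest at far distal elements. Of 8589 far distal elements tested, 3474 (40.4%) changed, 1899 rising and 1575 falling, against 24.7% of all CREs tested, 13.6% called higher and 11.1% called lower. After quantile normalization the balance turned, with 1681 rising and 1698 falling. By class the called share was 7.47% at promoters, 23.2% at 1 to 10 kb, 29.0% at 10 to 50 kb and 40.4% beyond 50 kb. In the middle group by mean value these shares were 11.3%, 32.0%, 39.2% and 53.8%. Within the far distal class the IL-4 share went on rising with distance, from 37.8% of 4651 elements at 50 to 100 kb to 43.0% of 2560 at 100 to 200 kb, 44.1% of 1171 at 200 to 500 kb and 47.8% of 207 farther out. The LPS share showed no such order, at 63.4%, 65.3%, 63.8% and 60.8% in the same bins. Far distal elements inside protein-coding genes were called less often than intergenic ones, in 2196 of 3784 tested against 2947 of 4343 (67.9%) for LPS and in 35.9% against 43.7% for IL-4, and elements inside non-coding genes stood at 67.8% and 42.4%. These shares are descriptions, and the differences between classes and bins were not tested.

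Over time the rises after LPS were spread evenly, while the falls came later. Elements that were called and more than 2-fold higher numbered 2261 at 30 min, 2581 at 1 h, 2626 at 2 h and 2540 at 4 h, and those more than 2-fold lower numbered 1281, 1622, 2167 and 1844. As shares of the elements tested, the rises were 23.6%, 26.9%, 27.4% and 26.5%, against 16.4%, 19.4%, 21.2% and 20.4% of all CREs, and the falls 13.4%, 16.9%, 22.6% and 19.2%, against 13.2%, 15.1%, 19.2% and 15.4%. Among the 2226 elements with a called rise that was already above 2-fold at 30 min, 1477 (66.4%) were still above it at 4 h and 421 (18.9%) had come back to a log2 difference below 0.5. A later group of 508 elements passed a 2-fold rise at 4 h but not at 30 min or 1 h. Falls lasted as well, with 933 of the 1256 present at 30 min (74.3%) still more than 2-fold down at 4 h. Lasting and late responses were counted at far distal elements only, so these counts show no difference from all CREs.

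After IL-4 the order in time was different, with rises first and falls after them. Called rises above 2-fold were most numerous at 30 min, 1664, and then 1327, 1150 and 1102, whereas falls numbered 230 at 30 min, 694 at 1 h, 1225 at 2 h and 1026 at 4 h. The shares were 19.4%, 15.4%, 13.4% and 12.8% for rises, against 10.7%, 9.45%, 8.65% and 8.32% of all CREs, and 2.68%, 8.08%, 14.3% and 11.9% for falls, against 1.96%, 4.57%, 8.20% and 6.33%. Of 1654 called rises present at 30 min, 911 (55.1%) were still above 2-fold at 4 h and 462 (27.9%) had returned below a log2 difference of 0.5. Only 122 rises but 558 falls first passed 2-fold later than 1 h and were past it at 4 h. As for LPS, lasting and late responses were not counted over all CREs. The median over far distal elements tested moved from 0.24 (log2) at 30 min to -0.18 at 2 h, while that over all CREs moved from 0.09 to -0.03. Quantile normalization of the libraries moved the median of all CREs by more than 0.1 at 30 min of IL-4 (from 0.09 to -0.09), at 1 h of LPS (from 0.09 to -0.03) and at 4 h of LPS (from 0.08 to -0.07), so the far distal median is given relative to it. For IL-4 it was 0.16, -0.04, -0.14 and -0.15 at the 4 times as deposited, and 0.13, -0.05, -0.13 and -0.16 after that normalization. For LPS the far distal median lay 0.19, 0.11, 0.08 and 0.07 above that of all CREs at the 4 times, and 0.12, 0.05, 0.01 and 0.02 above it after quantile normalization.

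The largest rise after LPS was at the Itgb8 element (chr12:119105653-119108663), in the intergenic stretch between Abcb5, which encodes a membrane transporter, and Itgb8, which encodes the integrin beta 8 subunit. Its normalized read counts were 5 and 1 in the UT libraries, 25 and 30 at 30 min of LPS, 335 and 332 at 1 h, 790 and 718 at 2 h and 462 and 449 at 4 h. After IL-4 they were 17 and 26, 10 and 22, 16 and 15, and 13 and 19 at the same times, a smaller rise that was also called (1.75 ± 0.38 at 30 min). Every LPS library from 1 h on was above all UT and IL-4 libraries, and the 2 h difference from UT was 6.61 ± 0.21 (log2, SE, n = 2 per group). The limma F-test over all 4 LPS times gave an adjusted p of 1.36e-24. The neighbouring Abcb5 element (chr12:119100735-119102609), whose window is printed above, went from 5 and 1 in UT cells to 46 and 27, 386 and 270, 642 and 634, and 292 and 313 after LPS, a difference of 6.38 ± 0.23 at 2 h. After IL-4 it held 27 and 28 at 30 min and 10 and 22 at 4 h, so that the 2 stimuli did not overlap from 1 h on. All 9 elements nearest to Itgb8 were called higher after LPS.

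**Figure D2:**
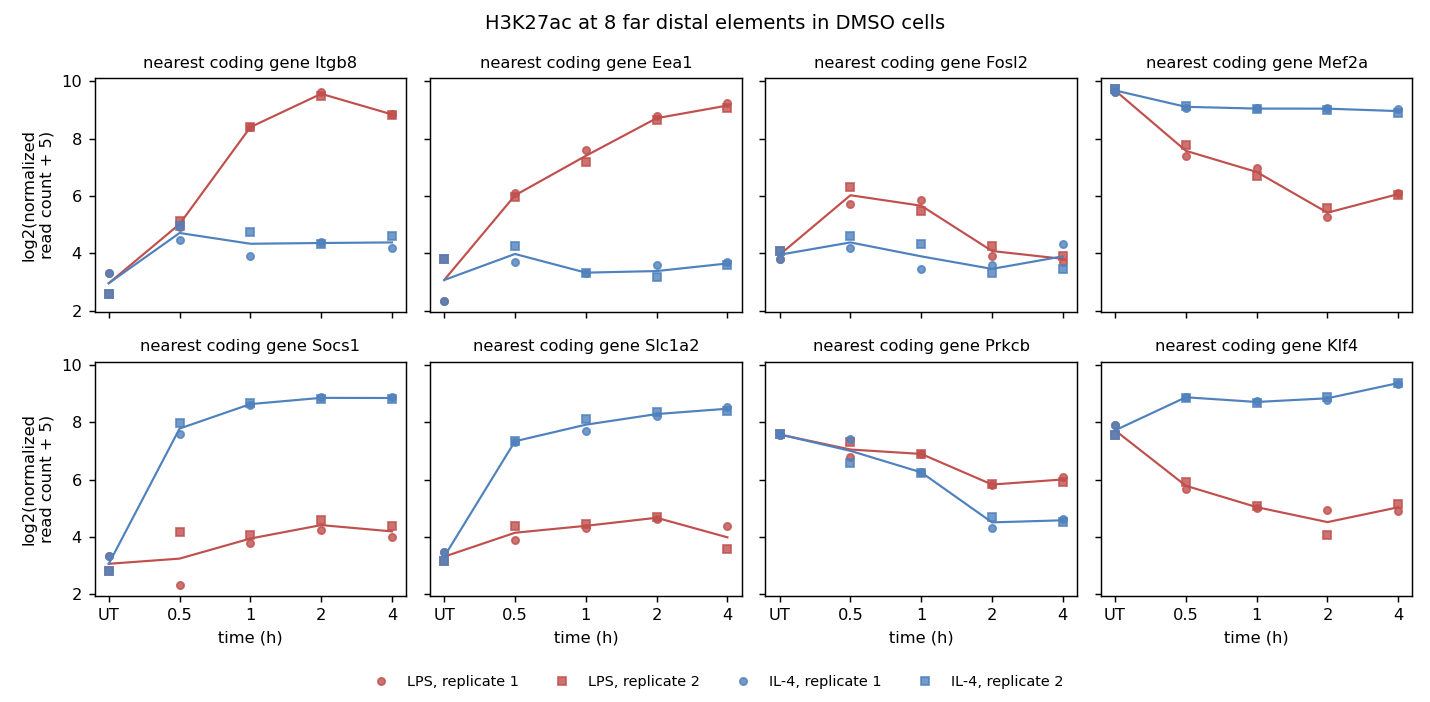
H3K27ac at 8 far distal elements in DMSO cells as log2(normalized read count + 5) against time in hours, with UT at the left, LPS in red and IL-4 in blue, both replicates as points and their mean as a line. The Itgb8 element rose far more with LPS (6.61) than with IL-4 (1.75), the Eea1 element rose with LPS, the Fosl2 element rose and came back, the Mef2a element fell, the Socs1 and Slc1a2 elements rose with IL-4, the Prkcb element fell further with IL-4 than with LPS, and the Klf4 element moved in opposite directions.

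A pair of elements on chromosome 18 between Acaa2, a mitochondrial thiolase gene, and Lipg, the gene of endothelial lipase, rose late. The first (chr18:74869000-74870984) held 3 and 3 in UT cells, 3 and 9 at 30 min of LPS, 86 and 119 at 1 h, 583 and 472 at 2 h and 840 and 686 at 4 h, and the second (chr18:74874855-74877528) held 12 and 6, then 8 and 16, 196 and 207, 845 and 750, and 1057 and 998. Neither moved at 30 min, and both peaked at 4 h, by 6.58 ± 0.25 and 6.24 ± 0.21. No IL-4 library exceeded 8 at either. The Eea1 element (chr10:96093274-96095598) was also still rising at 4 h, from 0 and 9 in UT cells to 63 and 57, 192 and 140, 439 and 393, and 595 and 538, a difference of 6.09 ± 0.27. The Alpk2 element (chr18:65327372-65329712), in an intron of that kinase gene, was fast by comparison, with 7 and 4 in UT cells and 254 and 306 already at 30 min, and reached a difference of 5.97 ± 0.17 at 2 h. Adjusted p-values of the limma F-test over all 4 times lay between 1.99e-25 and 4.05e-20 at these 4 elements.

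Falls after LPS were as clear at elements that began high. The Mef2a element (chr7:67461189-67462969) lies upstream of Mef2a, a transcription factor of muscle and myeloid cells, and held 791 and 846 in UT cells. LPS took it to 162 and 213 at 30 min, 122 and 98 at 1 h, 33 and 43 at 2 h and 63 and 61 at 4 h, while IL-4 left it between 472 and 564. No LPS library overlapped a UT or IL-4 library, and the 2 h difference from UT was -4.27 ± 0.19 (limma F-test over all 4 times, adjusted p = 2.16e-19). Of the 11 elements nearest to Mef2a, 9 were called lower after LPS. The Tbc1d9 element (chr8:83054192-83055863), in an intron of Rnf150, went from 632 and 575 to 32 and 19 at 2 h (-4.35 ± 0.24), and it was lower after IL-4 as well, 263 and 268 at 30 min, with a return to 482 and 411 at 4 h. Beyond the gene of the chemokine Cxcl12, neighbouring elements at chr6:117427203-117428866 and chr6:117430358-117432601 fell from 169 and 159 to 5 and 3 at 4 h (-4.24 ± 0.38) and from 554 and 522 to 20 and 39 at 2 h (-4.03 ± 0.26). Another of the 6 largest falls is in sequence with 66.8% repeated words (the Zfp386 element, chr12:115157538-115159278, 186 and 150 in UT cells against 2 and 1 at 1 h). The last, near Pdia4 (chr6:47747604-47749432, 97.0% repeated words), is listed at 0 in both 2 h libraries, and no fold is given for it.

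The largest IL-4 response of the far distal elements was a block in the introns of Clec16a next to Socs1, the gene of a feedback inhibitor of JAK kinases. The locus has 11 far distal elements, and all 11 were called higher after IL-4, with largest differences of 3.30 to 5.79 (log2). The Socs1 element printed above (chr16:10699537-10701291) held 5 and 2 in UT cells, and IL-4 raised it to 187 and 249 at 30 min, 385 and 404 at 1 h, 469 and 450 at 2 h and 468 and 448 at 4 h. After LPS its values were 0 and 13, 9 and 12, 14 and 19, and 11 and 16, and it was not called. Of the 9 elements of the locus tested for LPS, 5 were called higher, by up to 3.20, and 1 lower. At the Socs1 element all IL-4 libraries were above every other DMSO library, and the difference from UT at 2 h was 5.79 ± 0.16 (limma F-test over all 4 times, adjusted p = 5.8e-34). The next element (chr16:10701759-10705104) started higher, at 30 and 20, and reached 1309 and 1223 at 2 h (5.42 ± 0.11). Elements at chr16:10682663-10684381 and chr16:10667850-10669508 went from 2 and 1 to 295 and 279 at 4 h (5.49 ± 0.19) and from 2 and 5 to 292 and 284 at 4 h (5.13 ± 0.19). In the direct comparison of the stimuli, each of the 11 was lower after LPS than after IL-4.

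Elsewhere the Spry1 element (chr3:37535125-37536868), in an intron of Spata5 and upstream of Spry1, an inhibitor of receptor tyrosine kinase signalling, held 1 and 3 in UT cells and 96 and 129, 133 and 199, 241 and 263, and 243 and 222 after IL-4, a difference of 5.21 ± 0.20 at 2 h. The Slc1a2 element (chr2:102791028-102792666), between the glutamate transporter gene Slc1a2 and the gene of the hyaluronan receptor Cd44, went from 6 and 4 to 155 and 160, 205 and 275, 296 and 322, and 369 and 336, a difference of 5.17 ± 0.17 at 4 h. LPS left the Slc1a2 element between 7 and 21 at all times. Neither element overlapped between IL-4 and UT libraries at any time. The Spry1 element was below the mean of 10 needed for the LPS test and has no LPS call.

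Falls after IL-4 were smaller than those after LPS. The Prkcb element (chr7:122414725-122416378), in an intron of the protein kinase C beta gene, held 186 and 187 in UT cells and 166 and 92 at 30 min of IL-4, 72 and 71 at 1 h, 15 and 21 at 2 h and 20 and 18 at 4 h. This was the largest fall, -3.07 ± 0.24 at 2 h (limma F-test over all 4 times, adjusted p = 3.5e-17). LPS lowered it less, to 51 and 53 at 2 h. Other large falls were at the Dtnbp1 element (chr13:45088087-45089700, from 76 and 78 to 7 and 6 at 2 h, -2.84 ± 0.33), the Pid1 element (chr1:84467115-84468767, from 184 and 156 to 19 and 21 at 2 h, -2.80 ± 0.24) and an element upstream of the cholesterol transporter gene Abca1 (chr4:53227063-53228803, from 117 and 129 to 22 and 10 at 2 h, -2.67 ± 0.29). At the Abca1 element LPS first gave 160 and 195 at 30 min and then 43 and 36 at 4 h. The Zfp36l2 element (chr17:84027906-84029562) fell from 74 and 62 to 14 and 2 at 30 min of IL-4 (-2.66 ± 0.34), and the Shq1 element (chr6:100479907-100482510) from 149 and 164 to 20 and 22 at 4 h (-2.63 ± 0.24). All 6 were also called lower after LPS, in a comparison that shares the UT libraries.

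LPS and IL-4 were then compared directly at the same times over all 18 DMSO libraries, without UT as a reference. Of 9599 far distal elements tested, 6670 (69.5%) differed, 3533 higher after LPS and 3137 higher after IL-4, against 58.4% of all CREs tested, 29.2% in each direction. At 30 min more far distal elements were over 2-fold higher after IL-4 (2046) than after LPS (1564), and from 1 h on the order was turned, with 2440 higher after LPS against 1954 at 1 h, 2741 against 2137 at 2 h and 2702 against 1967 at 4 h. Over all CREs tested the shares higher after LPS were 12.9%, 18.7%, 22.1% and 21.0% at these times, where far distal elements had 16.3%, 25.4%, 28.6% and 28.1%. The shares higher after IL-4 were 17.3%, 17.1%, 19.7% and 17.8% of all CREs and 21.3%, 20.4%, 22.3% and 20.5% of far distal elements. The differences furthest toward LPS were at the 2 elements beside Lipg (6.77 ± 0.30 at 4 h and 6.60 ± 0.33 at 2 h), at the Lmo4 element (chr3:144136872-144139715, 657 and 487 after 4 h of LPS against 2 and 6 after IL-4, 6.02 ± 0.30) and at the Eci2 element (chr13:35079046-35080635, 788 and 716 after 2 h against 7 and 10, 5.82 ± 0.25). Among the elements furthest toward IL-4 was one upstream of Hhip, a hedgehog inhibitor gene (chr8:80162639-80164296), which held 286 and 252 after 4 h of IL-4 against 0 and 3 after LPS (-5.43 ± 0.35). At the Enthd1 element (chr15:80497103-80498715), an intron of that gene, UT cells held 60 and 61, IL-4 raised it to 351 and 348 at 4 h and LPS gave 11 and 0 (-5.31 ± 0.35).

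Far distal elements lay in clusters. When neighbours at most 50 kb apart on a chromosome were joined, the 11513 elements formed 3586 clusters, 1604 of them of 1 element, and 226 clusters of 10 or more held 3547 elements (30.8%). Within clusters the direction of change was often shared. Of 204 clusters with at least 5 elements called after LPS, 76 had 80% or more of the calls higher, 51 had 20% or fewer higher and 77 were mixed. For IL-4 the same counts were 62, 45 and 19 of 126 clusters. Neighbouring elements are not independent of each other, and no test was made of this sharing.

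The longest cluster held 47 elements over 550997 bp (chr10:96000302-96551298) between Eea1, an early endosome tether, and Btg1, an antiproliferative gene. All 47 were tested for LPS, with 22 called higher and 9 lower, and of 42 tested for IL-4, 2 were called higher and 25 lower. Within it, the Eea1 element described above rose after LPS, whereas the element at chr10:96170922-96173948 fell from 473 and 488 to 93 and 79 at 1 h of LPS (-2.42 ± 0.18) and to 121 and 118 at 2 h of IL-4 (-1.96 ± 0.14). The strongest elements of the cluster moved less. That at chr10:96330497-96335641 held 804 and 821 in UT cells, 435 and 402 at 2 h of LPS (-0.95 ± 0.11, under the 2-fold limit) and 357 and 358 at 2 h of IL-4 (-1.17 ± 0.09), and that at chr10:96372795-96375586 held 604 and 677 in UT cells and 1120 and 1304 at 30 min of LPS (0.91 ± 0.10, under the limit). Leaving out LPS 2 h replicate 1 moved the first past the limit, to -1.01, and leaving out LPS 30 min replicate 1 moved the second past it, to 1.02.

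Other clusters were more uniform. Of the 46 elements between Bcl2l11, which encodes the proapoptotic protein Bim, and Spdye4c, 40 were called higher after LPS and 3 lower, and after IL-4 14 of 43 were higher and none lower. Of the 45 between Myc and Gsdmc, 31 of 42 tested were called higher after IL-4 and none lower, against 23 higher and 10 lower after LPS. The 30 elements between Ado and Zfp365 held 29 tested for IL-4, and all 29 were called higher. After LPS they were mixed, with 13 of 27 called higher and 8 lower. The 32 elements between Zpld1 and Nfkbiz, the gene of the NF-kB cofactor IkB zeta, went the opposite ways, LPS raising 25 of 30 and IL-4 lowering 11 of 18, as did the 29 elements between Lpp and Tprg, where LPS raised 18 and IL-4 lowered 17. Falls prevailed beside Prex1, with 17 of 21 elements lower after LPS, 8 of 22 lower after IL-4 and none higher after either.

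Elements nearest to 3 lists of genes were counted, the lists having been drawn up with earlier results of these data known. Macrophage regulators, mostly transcription factors that hold or steer the lineage, were nearest to 352 far distal elements through 22 of the 29 genes listed. LPS was called at 238 of 334 of these (71.3%, 144 higher and 94 lower), and IL-4 at 142 of 314 (45.2%, 97 higher and 45 lower), shares near the 64.0% and 40.4% of all far distal elements tested. The median of the largest LPS difference was 0.83 against 0.64 over all far distal elements tested. Klf4, a factor of the IL-4 response, had 28 elements, of which 14 were called lower after LPS and 1 higher, and 11 higher after IL-4 and 2 lower. The Klf4 element with the largest LPS difference (chr4:55814203-55817932) held 233 and 183 in UT cells, 26 and 12 at 2 h of LPS and 652 and 667 at 4 h of IL-4, with differences of -3.20 ± 0.29 and 1.65 ± 0.11, and its LPS and IL-4 libraries did not overlap. Around Myc, the growth regulator, 36 of 47 elements were higher after IL-4 and none lower. Around Ets2 the directions were the reverse of those at Klf4, LPS raising 7 of 10 and IL-4 lowering 8 of 9, and at the Ets2 element printed above (chr16:95835358-95837059) UT cells held 35 and 45, LPS gave 303 and 232 at 4 h (2.59 ± 0.18) and IL-4 gave 10 and 5 (-1.87 ± 0.31).

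LPS response genes, cytokines, enzymes and regulators induced by inflammatory signals, were nearest to 195 elements through 21 of 59 genes. LPS was called at 153 of 183 of these, 144 higher and 9 lower (83.6%, against 64.0% of all far distal elements tested), with a median largest difference of 2.36 against 0.64. IL-4 was called at 70 of 156 (44.9%, against 40.4%), 56 higher and 14 lower. All elements tested rose after LPS at Il6, which encodes interleukin-6 (7 of 7), at Edn1, which encodes endothelin 1 (10 of 10), and at Hif1a, the hypoxia factor (10 of 10), and 22 of 23 rose at Tnfaip3, which encodes the NF-kB inhibitor A20. The Tnfaip3 element (chr10:19077004-19079246) held 17 and 5 in UT cells, 462 and 460 at 30 min of LPS and 853 and 851 at 2 h (5.85 ± 0.19), and after IL-4 it stayed between 12 and 24. The Il6 element (chr5:29879351-29881307) was slower, 10 and 5 in UT cells, 28 and 13 at 30 min and 506 and 435 at 4 h (5.27 ± 0.24). The Il12a element (chr3:68631957-68634549), near the gene of an interleukin-12 subunit, went from 7 and 4 to 621 and 509 at 4 h of LPS (5.77 ± 0.23) and to 54 and 54 at 4 h of IL-4 (2.51 ± 0.29). Ptgs2, the gene of cyclooxygenase 2, had 5 elements, all higher after LPS, and chr1:150197033-150198830 among them rose from 5 and 5 to 578 and 469 at 4 h (5.72 ± 0.22). At Nfkbiz LPS raised 19 of 22 and IL-4 lowered 8 of 15. Exceptions were Bcl6, with 3 elements called higher and 3 lower after LPS, and Prdm1, with 21 higher and 4 lower. Slc7a11, the cystine transporter gene, had 3 of 12 called after LPS, 2 higher and 1 lower. The Rnf144b element (chr13:47250509-47252112) differed by -1.50 at 1 h of LPS and lost the call without LPS 1 h replicate 2 or without either UT library.

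IL-4 response genes were nearest to 61 elements through 14 of 43 genes, and IL-4 was called at 27 of 54, 25 higher and 2 lower (50.0%, against 40.4% of all far distal elements tested), with a median largest difference of 0.98 against 0.11. LPS was called at 36 of 56 of this list (64.3%, against 64.0%), 27 higher and 9 lower, with a median largest difference of 1.15 against 0.64. All 6 elements nearest to Socs1 and all 6 nearest to Ch25h, the gene of cholesterol 25-hydroxylase, were called higher. At the Ch25h element (chr19:34410219-34411831) the rise was early and brief, 10 and 8 in UT cells, 137 and 136 at 30 min, 71 and 106 at 1 h, 40 and 39 at 2 h and 25 and 12 at 4 h (3.34 ± 0.28 at 30 min). The single element near Arg1, the arginase 1 gene (chr10:25051403-25053009), instead built up, from 10 and 16 to 49 and 49 at 30 min and 61 and 86 at 4 h (2.13 ± 0.27). The element in an intron of Mrc1, the mannose receptor gene (chr2:14294769-14296398, 30.5% repeated words), held 43 and 17 in UT cells, 147 and 106 at 30 min of IL-4 and 5 and 6 at 30 min of LPS. Calls at 2 elements of this list hung on single libraries. The Atf3 element (chr1:191243744-191245297, 1.04 at 30 min of IL-4) fell under the limit without IL-4 30 min replicate 2 (0.83) or UT replicate 1 (0.92), and the Pparg element (chr6:115306547-115308105, -1.12 at 2 h) without IL-4 2 h replicate 1 (-0.82) or UT replicate 1 (-0.94). In the first list the same held for the Irf8 element (chr8:120808384-120810135, 1.77 after LPS) without UT replicate 1.

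The elements farthest from any protein-coding start were followed as well. The farthest (chr1:102627436-102629103), 2140071 bp upstream of the cadherin gene Cdh20, held between 0 and 8 in every DMSO library and was not tested. At 1816085 bp from G6pd2, chr5:59991934-59993582 rose from 7 and 5 in UT cells to 81 and 87 at 2 h of LPS (3.02 ± 0.31), and its neighbour chr5:59995915-59997656 from 23 and 23 to 53 and 88 at 30 min (1.39 ± 0.27). The element at chr3:48100211-48101956, 1653094 bp from Pabpc4l, held 87 and 102 in UT cells and was not called.

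Far from coding genes does not mean far from every transcript. The 453 elements at a non-coding start were called after LPS in 243 of 384 tested (63.3%), 120 higher and 123 lower, and after IL-4 in 136 of 368 (37.0%), 69 higher and 67 lower, which is close to the 64.0% and 40.4% of all far distal elements tested. Morrbid is a long non-coding RNA that lowers expression of its neighbour Bcl2l11, and the element at its start (chr2:128426867-128430750) held 466 and 501 in UT cells, 1058 and 965 at 2 h of LPS (1.06 ± 0.10), 900 and 846 at 1 h of IL-4 (0.85 ± 0.09, under the limit for a call) and 334 and 361 at 4 h of IL-4. Its LPS call is marginal, 0.99 without LPS 2 h replicate 1 and 0.83 after quantile normalization. The start of Mir223, a myeloid microRNA, had an element at chrX:96241896-96243474 with 174 and 216 in UT cells. It fell to 41 and 32 at 2 h of LPS (-2.27 ± 0.28) and to 63 and 78 at 2 h of IL-4 (-1.40 ± 0.20), with no overlap between UT and any stimulated library. The mature microRNA from this locus, with its seed in capitals, is shown because Mir223 is the microRNA locus among the elements named here.
mmu-miR-223-3p, chrX:96242884-96242905: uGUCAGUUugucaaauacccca

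Sequence patterns in the central 300 bases differed between far distal elements by response and by time. Of the far distal elements, 26.9% held an AP-1 match, 7.19% NF-kB, 20.5% STAT, 6.11% ISRE, 47.0% PU.1 (GAGGAA) and 18.7% C/EBP (TTGCNNAA), against 20.2%, 6.81%, 17.6%, 5.13%, 41.2% and 14.7% of all elements. The PU.1 and C/EBP patterns were searched on both strands as were the others. Among elements called higher after LPS, AP-1 matches were most frequent where the largest difference came at 30 min (40.1% of 770) or 1 h (37.9% of 784) and less so at 2 h (27.1% of 972) and 4 h (26.2% of 1036), against 26.6% of the 3452 tested and not called. ISRE matches ran the other way, 3.38% and 5.36% at the early times and 15.5% and 11.2% at the late ones, against 5.39% not called. NF-kB matches stood at 9.87%, 14.3%, 13.4% and 11.4%, against 5.24% of elements not called and 3.97% of the 2567 called lower. The G+C content of these groups was close, with medians of 44.3% to 45.3% for the 4 groups called higher and 45.7% for elements not called.

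**Figure D3:**
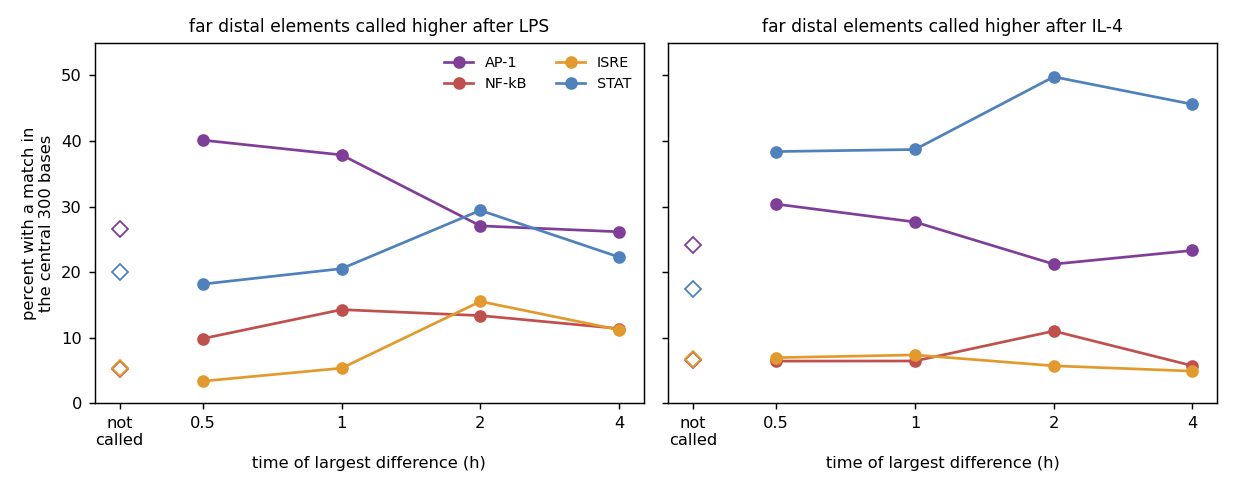
Percent of far distal elements with a match to the AP-1, NF-kB, ISRE and STAT patterns in the central 300 bases, by the time in hours at which the difference from UT was largest, for elements called higher after LPS (left) and after IL-4 (right), with open diamonds for elements tested and not called. With LPS, AP-1 goes from 40.1% at 0.5 h to 26.2% at 4 h and ISRE from 3.38% to 11.2%, and with IL-4 STAT matches are the most frequent of the 4 patterns at each time.

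For IL-4 the STAT pattern set the rising elements apart from the falling ones. It was found in 41.8% of the 1899 called higher, in 17.4% of the 5115 not called and in 12.9% of the 1575 called lower. The form with 4 spacer bases, which STAT6 is known to prefer, was found in 29.2%, 8.19% and 5.90% of the same groups and the form with 3 spacer bases in 16.7%, 9.99% and 7.94%, so that the 4-base form was the more frequent among the rising elements and the less frequent among the others. AP-1 matches, by contrast, were found in 27.1%, 24.1% and 29.8%. Elements higher after LPS than after IL-4 held the 4-base form in 8.86% of 3533, and those higher after IL-4 in 19.2% of 3137.

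The same time courses were followed in the CKI libraries, which are separate from the DMSO libraries used so far. With all 58 CKIs fitted together, each compound keeping its own level, 3981 of 11504 far distal elements (34.6%) were called after LPS, 2347 higher and 1634 lower, against 28.9% of all CREs (15.4% higher, 13.5% lower), and 1660 of 11499 (14.4%) after IL-4, 964 higher and 696 lower, against 8.84% (5.33% higher, 3.50% lower). Of the 3562 far distal elements that rose after LPS in DMSO cells, 3560 had the same sign over the CKI libraries at the time of their largest DMSO difference, and 2306 (64.7%) were called in the same direction. For falls after LPS the counts were 2556 of 2567 and 1568, for rises after IL-4 1896 of 1899 and 950, and for falls after IL-4 1568 of 1575 and 603. Agreement with the CKI libraries, here and by single CKI below, was counted at far distal elements only and not over all CREs. Differences over the CKI libraries were smaller. The median of the LPS rises was 1.17 (log2) against 2.02 in DMSO cells, that of the LPS falls -1.10 against -1.78, that of the IL-4 rises 0.96 against 1.70 and that of the IL-4 falls -0.86 against -1.38. Elements and times were chosen by the DMSO difference, which by itself favours a larger value in DMSO cells. The contrast of CKI libraries was also lower than that of DMSO libraries, as given above. The part of either in the smaller differences was not tested.

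The direction of an element was shared by most CKIs but seldom by all of them. Among the 972 far distal elements whose LPS rise was largest at 2 h, the median element was higher than its own UT in 52 of 55 CKIs, and 235 were higher in every CKI. Among the 1251 whose fall was largest at 2 h, the median was 53 of 55 and 450 were lower in every CKI. Elements that rose most at 30 min of LPS did so in every CKI for 86 of 770. Agreement was least among the IL-4 falls at the early times, where 54 of 81 elements with the largest fall at 30 min and 87 of 152 at 1 h (57.2%) fell in at least 80% of CKIs, against 903 of 972 for the LPS rises at 2 h. The Mef2a element fell in 55 of 55 CKIs at 2 h of LPS, by between 1.94 and 4.56 (log2) with a median fall of 3.59, from UT values of 526 to 847 to LPS values of 24 to 163. The Itgb8 element rose in 55 of 55, by 1.03 to 6.15. The Socs1 element rose in 56 of 56 CKIs at 2 h of IL-4, with a median difference of 3.92 and a range of 2.61 to 5.33, from UT values of 7 to 77 to IL-4 values of 216 to 561. The Klf4 element fell in 53 of 55 at 2 h of LPS and rose in 55 of 55 at 4 h of IL-4. The early Fosl2 element rose in 56 of 58 at 30 min of LPS, with a wider range, -0.30 to 3.18.

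**Figure D4:**
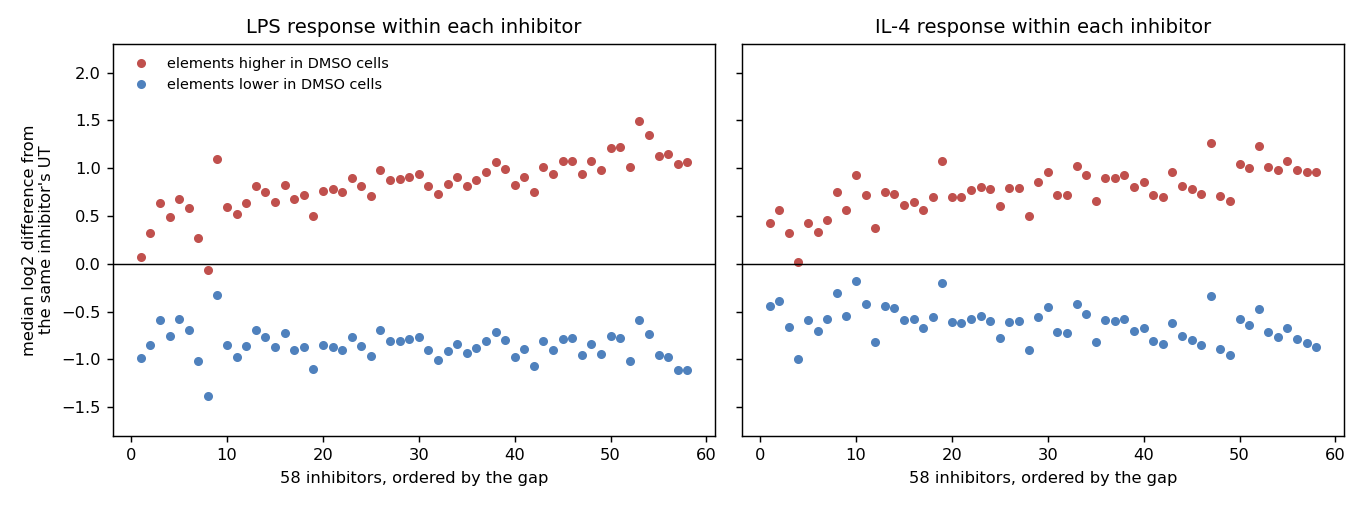
Median log2 difference between stimulated and UT libraries of the same CKI over the far distal elements that were called higher (red) or lower (blue) in DMSO cells, for LPS (left) and IL-4 (right), with the 58 CKIs in order of the gap between both medians. The gap is above 0 for every CKI and runs from 1.06 to 2.18 for LPS and from 0.87 to 1.83 for IL-4.

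For single CKIs, the median difference over elements that rose with LPS in DMSO cells ranged from -0.06 to 1.49 (log2, median 0.85) and that over elements that fell from -1.38 to -0.33. Since a shift of a whole library moves both, the gap between them was used, and it was above 0 in all 58 CKIs, from 1.06 to 2.18 with a median of 1.70. The smallest LPS gaps belonged to Afatinib (1.06), Volasertib (1.18), PH797804 (1.23) and Bafetinib (1.24), and the largest to Refametinib (2.18), Selumetinib (2.16), Tofacitinib (2.12) and ONO4059analogue (2.09). For IL-4 the smallest were those of Afatinib (0.87), Filgotinib (0.95), Volasertib (0.98) and Talmapimod (1.01), and the largest those of Refametinib (1.83), Selumetinib (1.79), GSK2110183 (1.77) and ONO4059analogue (1.75). Library contrast moved with this order. The 4 CKIs with the largest LPS gap had a contrast of 35.1 to 38.7 in their LPS libraries and the 4 with the smallest 5.84 to 10.7, and all 4 with the largest gap belong to the same run of columns in the table (run 4 of 6 by column order, which the labels do not tie to any batch). Within runs the LPS gap was 1.06 to 1.74 in run 1, 1.31 to 1.96 in run 2, 1.18 to 2.08 in run 3, 1.23 to 2.18 in run 4, 1.78 to 1.91 in run 5 and 1.24 to 1.74 in run 6. The part of contrast in the order of the CKIs was not tested, and most CKIs have 1 library per time and so no replicate error.

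JAK inhibitors were followed at the IL-4 elements, since JAK kinases carry the IL-4 signal. Over the elements that rose with IL-4 in DMSO cells, the medians of the 6 JAK inhibitors were 0.56 for Filgotinib, 0.65 for Ruxolitinib, 0.72 for BMS911543, 0.73 for Momelotinib, 0.98 for Pacritinib and 1.01 for Tofacitinib, within the range of the other 52 CKIs, 0.01 to 1.26 with a median of 0.78. The lowest of those 52 was Talmapimod, whose UT contrast was 7.02 against 14.0 in its IL-4 libraries. At the Socs1 element the 2 h difference of the JAK inhibitors ran from 3.22 with Filgotinib (284 against 28.5 in its UT) to 4.83 with Tofacitinib (422 against 10), where DMSO cells had 5.79. At the Clec16a element chr16:10682663-10684381 it was 1.34 at 4 h with Filgotinib and 1.38 with BMS911543, against 3.46 to 4.36 with the other 4 JAK inhibitors and 5.49 in DMSO cells. Both elements were named for their large rise in DMSO cells. At the Socs1 element every CKI measured, of any class, lay below the DMSO difference. Filgotinib and BMS911543 are the JAK inhibitors of run 1, and the others fell in runs 3, 4 and 5. Among the 6 JAK inhibitors, compound and run therefore cannot be told apart. Run 1 also holds CKIs of other classes, and the 2 were not set against those at these elements. The stimulated values rest on few libraries per compound, most often 1, and the differences between compounds were not tested.

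Set against DMSO rather than against their own UT, CKI libraries were mostly higher at far distal elements. In the fit of UT and LPS libraries, 261474 of 667232 pairs of an element and a CKI (39.2%) were called, 237060 of them higher, against 36.4% of pairs over all CREs, with 32.3% called higher. This fit took an adjusted p under 0.05 and a log2 difference over 0.5, averaged over the times. With UT and IL-4 libraries the count was 286912 of 666942 (43.0%), 261530 higher, against 39.2%, with 36.2% called higher. The direction depended on the scaling. Of the called pairs 90.7% were higher as deposited, 37.6% of 35253 after quantile normalization and 47.7% of 21279 when the reference was the mean of all compounds, and for IL-4 the shares were 91.2%, 34.0% of 51764 and 67.4% of 33365. Over all CREs the last 2 settings called 4.62% and 2.78% of pairs for LPS and 6.54% and 3.98% for IL-4. The excess also went with the level of the element. Far distal elements were ranked by their DMSO UT values into 5 equal groups. In the fit of UT and LPS libraries the median difference from DMSO was 1.11 in the weakest group, then 0.85, 0.58 and 0.33, and -0.02 in the strongest. The same UT libraries are part of the DMSO reference, so a low value there raises the difference by itself. Part of this order was thus fixed by the grouping, and how large a part was not tested.

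**Figure D5:**
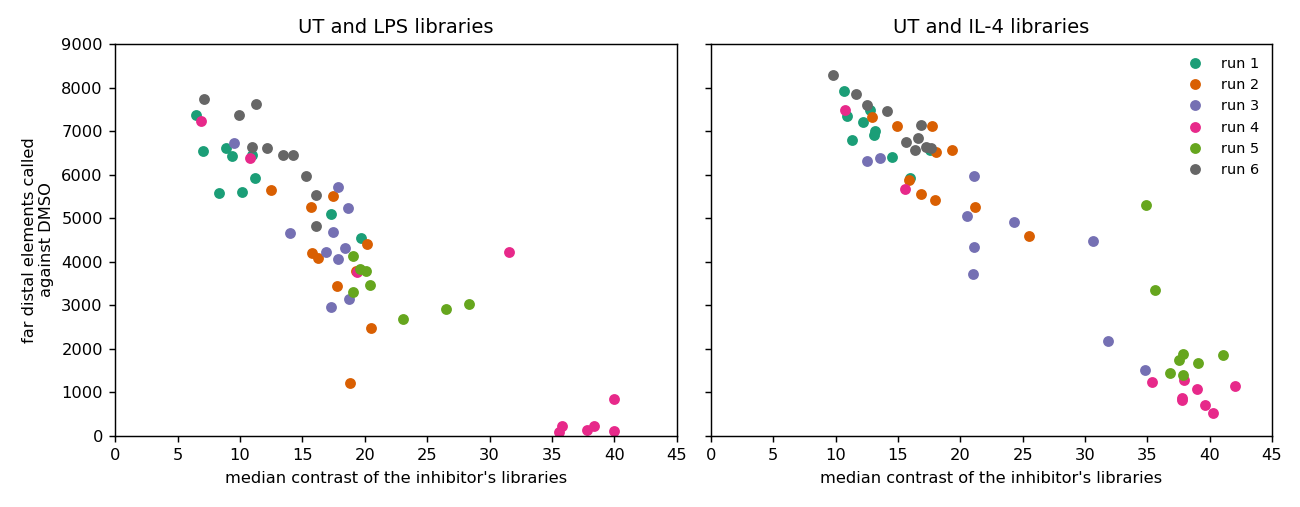
Number of far distal elements called against DMSO for each of the 58 CKIs against the median contrast of its libraries (strongest 10% over weakest 10% of CREs, no unit), with UT and LPS libraries on the left, UT and IL-4 libraries on the right, and colours for the 6 runs of columns in the table. The counts go from 95 to 7736 on the left and from 525 to 8288 on the right, and the CKIs of highest contrast, near 40, lie at the low end of both.

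By compound, the number of far distal elements called in the LPS fit ran from 95 with Refametinib, 109 with ONO4059analogue and 125 with Selumetinib to 7380 with Losmapimod, 7623 with Neratinib and 7736 with Bafetinib. In the IL-4 fit it ran from 525 with VX702 and 716 with ONO4059analogue to 7931 with X396 and 8288 with Silmitasertib. Run medians went from 537.5 (run 4) to 6530 (run 6) for LPS and from 1110 (run 4) to 6985.5 (run 6) for IL-4, and the median contrast of run 4 was the highest for both, 35.7 and 37.8. Even within run 4 the LPS counts ran from 95, for Refametinib at a median contrast of 35.5, to 7233, for PH797804 at 6.88. The order of the CKIs in these counts therefore cannot be told apart from that of library contrast, and DMSO, whose libraries lie outside the runs, is shared by all 58 comparisons.

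The spread over CKIs was larger at far distal elements than at promoters. At a given stimulus and time the SD of log2(value + 5) over CKI libraries had a median of 0.56 to 0.71 over far distal elements, against 0.29 to 0.43 at promoter elements, 0.49 to 0.64 at 1 to 10 kb and 0.53 to 0.66 at 10 to 50 kb. Computed within the runs it was 0.50 to 0.63 at far distal elements and 0.27 to 0.40 at promoters. The SD between 2 DMSO replicates had a median of 0.16 to 0.23 at far distal elements. The median of SDs from 2 values lies below the true spread, so it is not the same measure as the SD over many CKI libraries. Taken over all far distal elements, the SD of the log2 difference between replicates was 0.38 to 0.53, which holds the spread of both libraries. Most of the gap between classes went with level. In UT cells the far distal SD was 0.75 in the weakest of 5 equal groups of elements by level and 0.28 in the strongest, where promoters had 0.69 and 0.24. Within each of the 5 groups the far distal value was the higher of the 2, by little (0.61 against 0.57 in the next to weakest). No test was made of these medians, which are taken over elements that share libraries.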

How the data were processed

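H3K27ac was profiled by ChIP-seq in 564 BMDM libraries, of which 18 received DMSO and 546 a CKI. The deposited values were normalized read counts rounded by the authors to whole numbers, a score rather than raw read numbers. Per the study's methods, the authors trimmed reads to 51 bases, mapped them to mm10 with ShortStack, counted them around the summits of accessible chromatin and scaled each library. Bowtie and SAMtools appear in the submitters' processing notes. Because the values were already scaled, limma was used in place of a count model, raw depth is unknown, and no counting interval was computed.

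Distances were taken from element centres to the starts of 84748 protein-coding RefSeq transcripts (GRCm38.p6). Models were fitted to log2(value + 5) over all elements with a mean of at least 10 in the libraries of the comparison, so fold changes are on that scale and understate the change of weak elements. P-values were Benjamini-Hochberg adjusted over the whole table. Calls needed an adjusted p below 0.01 and an absolute log2 difference above 1 at 1 or more times for time courses, or 0.05 and 0.5 for CKI against DMSO. LPS and IL-4 courses share the DMSO UT libraries. CKI libraries fell into 6 runs by their order in the table, which the labels do not tie to a batch. All DMSO replicates share the labels 1 and 2, but their deviations from the group means did not go together (r from -0.0873 to 0.0664 over 36 pairs of groups), so no pairing was used.

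Named elements were the 6 largest rises and the 6 largest falls per stimulus, the 4 furthest in each direction between stimuli, the 4 highest in UT cells, the 4 farthest from a start, 4 of the longest cluster (the 2 highest in UT cells and the largest LPS rise and fall), the element with the largest difference for each listed gene, and elements at listed non-coding starts. A few of these are not reported here. The members and lists were chosen with earlier results of these data known. Only the fit of the LPS time course in DMSO libraries was tested on simulated data. Alternatives covered pseudocounts of 1 and 20, no filter, quantile normalization, other thresholds, distance rules and left-out libraries. Analyses used R 4.3.3, limma 3.58.1, Python 3.11.15, numpy 2.4.6, pandas 2.3.3 and matplotlib 3.10.9.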

Additional observations from a re-analysis of the deposited data

How the results depend on the processing

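The definition of the far distal class set its size. With a limit of 100 kb it held 5278 elements, of which 2853 were called after LPS and 1715 after IL-4, and with the starts of all RefSeq transcripts, non-coding ones included, it held 5266, of which 2741 and 1607 were called. With curated RefSeq starts alone, an alternative chosen after seeing the data, the class held 13915 elements, 7320 and 4053 of them called.

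In DMSO cells the total counts stayed within 1.5 times the reported ones under the other alternatives. By direction, the 1575 IL-4 falls dropped to 922 with a pseudocount of 20 (1401 higher), and after quantile normalization the IL-4 balance turned, from 1899 higher and 1575 lower to 1681 and 1698. Leaving out each library in turn gave 5492 to 6152 calls after LPS, 3022 to 3505 after IL-4 and 6542 to 6661 between the stimuli, where a group left with 1 library is assumed to vary like the others. With the replicate number as a block the counts were 6127, 3472 and 6673, and the block changed none of these counts by over 1.5 times. The numbers do not pair the samples.

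Over the CKI libraries a log2 limit of 0.5 raised the calls to 8062 after LPS and 5015 after IL-4, and a pseudocount of 20 lowered those after IL-4 to 968. Without the 30 min LPS library of PH797804, also chosen after seeing the data, 4006 were called after LPS. Pairs of an element and a CKI called against DMSO depended most on the scaling. They numbered 35253 (LPS) and 51764 (IL-4) after quantile normalization, 21279 and 33365 against the mean of all compounds, and 166961 and 186991 with a log2 limit of 1. Leaving out either DMSO replicate gave 180419 to 206430 and 232510 to 235391, and leaving out the PH797804 library gave 269406 for LPS. The cause of these shifts was not tested. Of 1789 alternative values for 102 results on named elements, 1757 kept their call and direction, 22 lost the call, 10 gained one and 0 reversed.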
